A study of Homo sapiens with 6 samples.

Results

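The genes described here are 40 genes of the ATF4 pathway and the amino acid response. They were chosen by their symbols, with earlier results of these data known. They comprise 8 transcription factors, 6 stress effectors and 12 enzymes of amino acid and folate metabolism. The others are 5 amino acid transporters and 9 genes of tRNA charging and export. All 40 were found among the 59074 genes of the deposited table, and all 40 were among the 14294 that averaged 1 CPM (read counts scaled to a library total) or more over the libraries. Glioblastoma cells of 3 established lines, LN-229, T98G and U251, gave RNA at 72 h after transfection with siPOOLs, which are mixtures of siRNAs, directed either against the long non-coding RNA HOTAIRM1 (siHOTAIRM1) or against no target (siControl). There is 1 library for each cell line and condition, 6 in all, and the sample titles write LN-229 as LNT229. The cell lines are therefore the replicates of the knock-down (n = 3), and nothing in the sources used here describes repeated transfections of 1 line for these libraries.

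ATF4 is a transcription factor whose mRNA is translated preferentially when the initiation factor eIF2 is phosphorylated, which happens when cells lack amino acids, accumulate unfolded proteins or suffer mitochondrial stress. With partners of the C/EBP family it activates genes that make, import and charge amino acids onto tRNAs, and genes such as DDIT3 and TRIB3 that act later in prolonged stress. Because ATF4 is controlled in large part by translation, its mRNA level is not a measure of its protein. In glioblastoma cells several of these genes, such as the cystine transporter SLC7A11 and the serine pathway enzymes PHGDH and SHMT2, are known for their part in redox balance and growth.

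HOTAIRM1 itself was at 1.99, 3.49 and 1.27 CPM in the siControl libraries of LN-229, T98G and U251 and at 0.952, 2.15 and 0.623 CPM in the siHOTAIRM1 libraries. It was lower in all 3 lines and fell by 0.54 on the log2(CPM + 1) scale (SE 0.12, adjusted p = 0.0146, limma). The libraries held 52.3 to 104 M reads, with 52.3 M in the siControl library and 101 M in the siHOTAIRM1 library of U251. The listed genes took 50.2% of the scale in the siControl and 42.9% in the siHOTAIRM1 library of T98G, 67.2% and 55.9% in U251, and 47.0% and 48.5% in LN-229. Over the 14294 genes the median change was 0.01 (LN-229), -0.19 (T98G) and -0.03 (U251), and 46.3%, 79.3% and 53.2% of genes were lower in these lines. Changes in T98G are therefore to be read beside that median. The 7 markers of glioma and neural stem cells summed to 1017 to 3123 CPM, but SOX2 and S100B were below a level of 3 reads in both T98G libraries. The 6 markers of blood and vessel cells summed to 1.23 to 8.74 CPM, and the 6 markers of neurons and oligodendrocytes to 6.83 to 95.4 CPM, with the highest sum in LN-229. The blood and vessel sum went from 1.25 to 1.23 CPM in LN-229, from 8.74 to 3.51 CPM in T98G and from 4.19 to 1.88 CPM in U251 with siHOTAIRM1, and its marker CD68 was called lower (log2 change -0.62, SE 0.15, adjusted p = 0.0223, limma). Of the neuronal markers SYT1 was called lower, at 18.6, 2.03 and 20.9 CPM with siControl and 11.9, 0.88 and 8.51 CPM with siHOTAIRM1 (log2 change -0.83, SE 0.15, adjusted p = 0.00138, limma). The part of these markers in the results was not tested. In these bulk libraries fewer expressing cells and less RNA per cell cannot be told apart.

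The promoter stretches below are shown because they hold a known regulatory motif, found in part of the members. The members were listed as targets of ATF4 and genes of the amino acid response, so the share that holds it is no independent result. The C/EBP-ATF response element, searched as TGATGNAA on both strands in RefSeq windows (GRCh38.p14) from 250 bases before to 50 bases after the gene start, was found in 12 of the 34 members with a window, against 4.46% of 27305 genes. Counted by window, 22.6% of the 53 member windows and 3.62% of all windows held it. The stretches of 30 bases around the match in ASNS (chr7:97872458-97872487, minus strand), CEBPG (chr19:33374060-33374089, plus strand), CHAC1 (chr15:40953251-40953280, plus strand), ATF3 (chr1:212565205-212565234, plus strand) and IARS (chr9:92293692-92293721, minus strand) read as follows on the strand of the gene, with the match in capitals.
ASNS: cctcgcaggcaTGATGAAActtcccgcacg
CEBPG: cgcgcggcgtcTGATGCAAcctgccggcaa
CHAC1: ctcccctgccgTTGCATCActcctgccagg
ATF3: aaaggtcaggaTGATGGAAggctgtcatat
IARS: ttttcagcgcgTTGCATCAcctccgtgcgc
The first base of the match lies 68 bases before the RefSeq start in ASNS, 42 in CEBPG, 209 in CHAC1, 191 in ATF3 and 13 in IARS. In CHAC1 and IARS the match is on the opposite strand and therefore reads TTGCATCA. GENCODE v44 transcripts that begin further upstream place exons of ASNS, CHAC1 and IARS over their stretches, while no exon covers those of CEBPG and ATF3. The other members with a match were AARS, GARS, JDP2, MARS, NARS, SLC3A2 and SLC7A1. The cAMP response element TGACGTCA was found in 0 of the 34 members (2.25% of genes), and the E-box CACGTG in 4 of them, ALDH18A1, ATF4, IARS and SLC7A5 (8.77% of genes).

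MTHFD2 and PSAT1, the members with the lowest and the highest mean change, had no match to the response element, the cAMP element or the E-box in their windows. Their stretches from 250 to 11 bases before the start are given on the plus strand, for MTHFD2 at chr2:74198365-74198604, inside the gene's longest annotated span and over an exon of an antisense lncRNA, and for PSAT1 at chr9:78296875-78297114, outside any annotated exon. The capitals mark the letters CCAAT, a common promoter motif searched on both strands after these stretches had been read.
MTHFD2: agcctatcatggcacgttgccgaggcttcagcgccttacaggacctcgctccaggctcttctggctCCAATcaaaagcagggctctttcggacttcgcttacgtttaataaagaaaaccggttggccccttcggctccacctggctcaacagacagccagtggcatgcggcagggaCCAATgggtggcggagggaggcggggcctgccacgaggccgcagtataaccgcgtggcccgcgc
PSAT1: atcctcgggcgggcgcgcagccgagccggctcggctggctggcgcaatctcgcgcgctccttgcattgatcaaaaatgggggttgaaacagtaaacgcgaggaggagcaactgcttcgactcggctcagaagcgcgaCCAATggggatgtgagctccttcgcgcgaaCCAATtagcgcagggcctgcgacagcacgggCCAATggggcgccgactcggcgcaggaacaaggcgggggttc
CCAAT was present 2 times in the stretch of MTHFD2 and 3 times in that of PSAT1, and in 58.8% of the 34 members against 39.7% of all genes.

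To determine which of these genes changed with the knock-down over the 3 lines, log2(CPM + 1) was compared with limma with the cell line as block. The test called 286 of 14294 genes (2.0%), 59 higher and 227 lower, and 1 of the 40 members (2.50%), MTHFD2. An unadjusted p under 0.05 was reached by 7 members, 5 of them lower, and by 18.3% of all genes. The counts by role given below are to be read beside these shares. By their mean change 31 members were lower and 9 higher, and 63.8% of all genes tested were lower. In all 3 lines 16 of the 40 members were lower, against 28.1% of the genes tested, and 1, PSAT1, was higher, by less than 0.01 on the log2 scale in T98G. The count of 16 depends on the scaling. With each library scaled to the sum of its listed genes, 7 members in place of 25 were lower in U251. Of the 14294 genes, 4416 in place of 7610 were then lower in that line.

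MTHFD2 is the mitochondrial enzyme that oxidises methylene-tetrahydrofolate in the folate cycle (chromosome 2, 74186172 to 74217565, plus strand, hg38). It was at 60.7, 50.8 and 83.3 CPM in the siControl libraries of LN-229, T98G and U251 and at 37.3, 25.4 and 51.1 CPM in the siHOTAIRM1 libraries. Every line was lower with the knock-down, to 0.614, 0.500 and 0.613 of its control, while the range of the siHOTAIRM1 libraries still touched that of the controls. The level fell by 0.79 on the log2 scale (SE 0.14, adjusted p = 0.00154, limma). Reads assigned to 7 MTHFD2 pseudogenes amounted to 3.50 to 4.76% of the gene's own value, and adding them did not change the call. Exons of MTHFD2 share 1324 bases with exons of SLC4A5 on the opposite strand, a gene at 0.0757 to 0.205 CPM in these libraries. With the library values scaled to the listed genes, MTHFD2 did not pass the test (log2 change -0.65, adjusted p = 0.101), nor did it without T98G (log2 change -0.69, adjusted p = 0.367), with no filter on low genes (adjusted p = 0.677) or with no block for the line (adjusted p = 1).

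**Figure D1:**
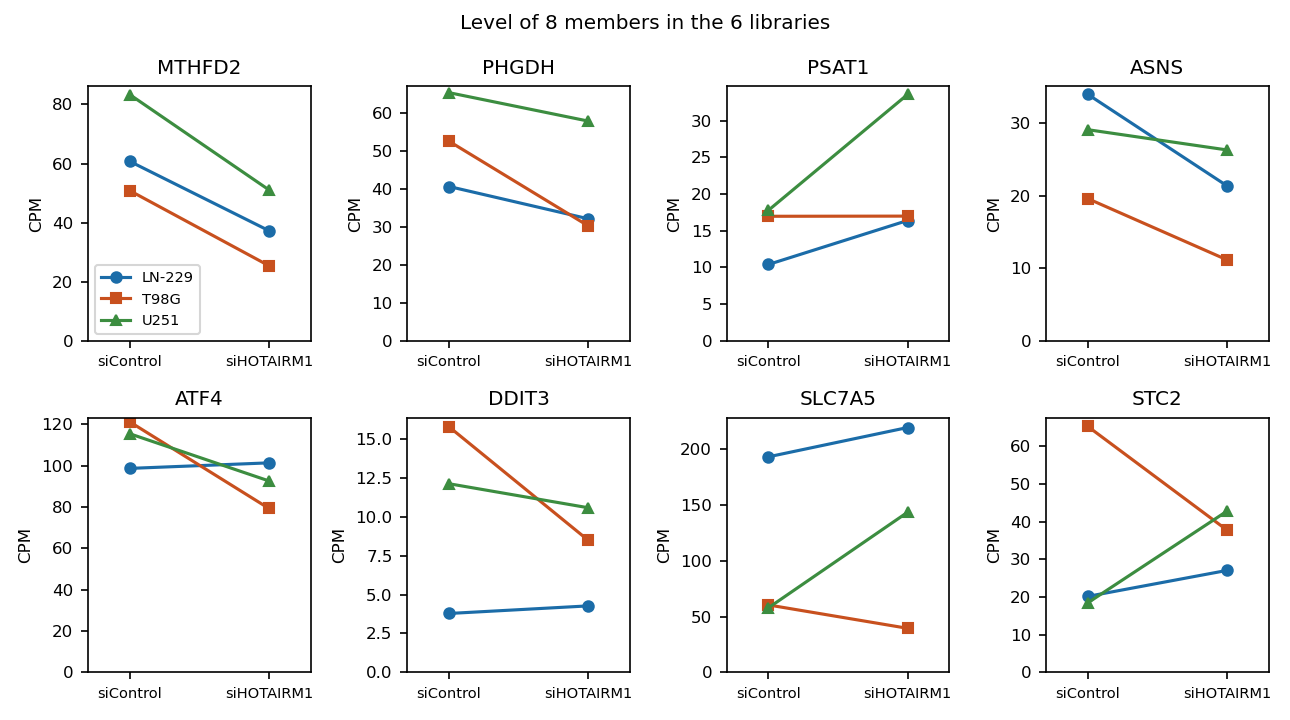
CPM of 8 members (vertical axes, linear from 0) in the siControl and siHOTAIRM1 libraries, with 1 line of points per cell line and 1 library per point. MTHFD2 was lower with siHOTAIRM1 in all 3 cell lines, from 60.7 to 37.3 CPM in LN-229, from 50.8 to 25.4 CPM in T98G and from 83.3 to 51.1 CPM in U251, whereas SLC7A5 and STC2 moved in opposite directions in T98G and U251.

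The enzymes of serine synthesis did not move together. PHGDH, which takes the first step from 3-phosphoglycerate, was at 40.6, 52.5 and 65.3 CPM in the siControl libraries of LN-229, T98G and U251 and at 32.1, 30.2 and 57.8 CPM with siHOTAIRM1. It was lower in each line, with a mean log2 change of -0.43 (SE 0.15) that did not pass the test (adjusted p = 0.113, limma) and was -0.25 without T98G. When the libraries were scaled to the listed genes, PHGDH was not lower in U251 (log2 change 0.09 in place of -0.17). PSAT1, the transaminase of the second step, was at 10.4, 17.0 and 17.8 CPM with siControl and at 16.4, 17.0 and 33.5 CPM with siHOTAIRM1. The gene was thus 1.58 times its control in LN-229, 1.89 times in U251 and level in T98G. Its mean log2 change of 0.50 (SE 0.15) missed the threshold (adjusted p = 0.0767, limma) and was 0.31 without U251. PSPH, the phosphatase of the last step, had log2 changes of 0.08, -0.24 and 0.13. SHMT2, which splits serine into glycine and a folate-bound carbon in mitochondria, was at 37.8 and 37.3 CPM in LN-229 and at 63.3 and 63.1 CPM in U251, but went from 80.0 CPM with siControl to 51.9 CPM with siHOTAIRM1 in T98G. Reads on PSAT1 pseudogenes came to 4.01 to 6.27% of its own value.

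ASNS, the asparagine synthetase and a classical ATF4 target, was at 33.9, 19.6 and 29.1 CPM in the siControl libraries and at 21.4, 11.2 and 26.3 CPM in the siHOTAIRM1 libraries. It was lower in all 3 lines, by more than 0.5 on the log2 scale in LN-229 (-0.64) and T98G (-0.76) and by less in U251 (-0.14). The test gave a mean log2 change of -0.51 (SE 0.15, adjusted p = 0.0573, limma). When the libraries were scaled to the listed genes, ASNS was not lower in U251 (log2 change 0.12). Its exons share 2415 of 4896 bases with those of a lncRNA annotated on the same strand. Of the transsulfuration enzymes, CTH, which releases cysteine from cystathionine, had log2 changes of -0.21, -0.64 and -0.28, and CBS, which makes cystathionine, had log2 changes of 0.71, -0.07 and 0.48. Neither passed the test (adjusted p = 0.113 for CTH and 0.181 for CBS, limma). CBS was among the lower-expressed enzymes in LN-229, at 3.31 CPM with siControl and 6.07 CPM with siHOTAIRM1. The proline enzymes PYCR1 and ALDH18A1 and the mitochondrial carboxykinase PCK2 had mean log2 changes of -0.20, -0.20 and -0.21. Of the 12 enzymes as a whole, 1 was called, 6 had an unadjusted p under 0.05 (limma) and 9 were lower by their mean. The shares of all genes tested were 2.0%, 18.3% and 63.8% by the same measures.

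Of the 8 transcription factors 0 passed the test and 0 had an unadjusted p under 0.05 (limma), and the smallest adjusted p among them was 0.289 (limma), for NUPR1. ATF4 (chromosome 22, 39519695 to 39522683, plus strand) was at 98.7, 121 and 116 CPM with siControl in LN-229, T98G and U251 and at 101, 79.4 and 92.7 CPM with siHOTAIRM1. The mRNA was almost level in LN-229 (log2 change 0.04) and lower in T98G (-0.61) and U251 (-0.31), with a mean of -0.29 (SE 0.16, adjusted p = 0.314, limma) that was -0.14 without T98G and -0.46 without LN-229. Its partner CEBPG, a small C/EBP protein that pairs with ATF4, followed the same order at 17.7, 25.5 and 67.2 CPM with siControl and 18.0, 16.7 and 56.6 CPM with siHOTAIRM1. DDIT3, also known as CHOP, was at 3.78, 15.8 and 12.1 CPM with siControl and at 4.27, 8.48 and 10.6 CPM with siHOTAIRM1, which gives log2 changes of 0.14, -0.82 and -0.18 and a mean of -0.02 without T98G. An exon of DDIT3 overlaps one of MARS on the opposite strand, and the library kit did not keep strand, so their reads cannot be fully told apart.

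ATF3, a factor induced by many stresses, was at 4.52, 3.0 and 6.11 CPM with siControl and at 4.47, 1.62 and 5.29 CPM with siHOTAIRM1. CEBPB was at 7.06, 16.2 and 8.46 CPM with siControl and at 8.20, 11.1 and 7.44 CPM with siHOTAIRM1. ATF5, which responds to mitochondrial stress, was the factor with the highest mean change, at 4.04, 3.49 and 3.25 CPM with siControl and 4.99, 3.29 and 3.93 CPM with siHOTAIRM1. Its log2 changes were 0.25, -0.07 and 0.21 (mean 0.13, SE 0.14, adjusted p = 0.646, limma). Exons of ATF5 share 565 bases with exons of NUP62 on the opposite strand, which was at 27.2 to 47.3 CPM. All 8 factors were lower in T98G, 7 of 8 in U251 and 2 of 8 in LN-229, beside 79.3%, 53.2% and 46.3% of all genes. These counts depend on the scaling. When the libraries were scaled to the listed genes, 7, 2 and 4 of the 8 were lower in T98G, U251 and LN-229. Of the 14294 genes, 7199, 4416 and 8135 were then lower in these lines. The change of ATF4 was then -0.05 in U251 and -0.38 in T98G. Against the overall median of T98G, DDIT3 was lower by 0.63, ATF4 and ATF3 by 0.42 each, and ATF5 was higher by 0.12.

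The stress effectors differed between the lines. STC2, a secreted glycoprotein induced by ATF4 (chromosome 5, 173314723 to 173328447, minus strand), was at 20.2, 65.3 and 18.4 CPM with siControl and at 27.0, 37.8 and 42.7 CPM with siHOTAIRM1. Its log2 changes were 0.41, -0.77 and 1.17, so that T98G and U251 went in opposite directions, and this difference was not tested. DDIT4, an inhibitor of mTORC1 also known as REDD1, was at 70.6, 42.3 and 70.4 CPM with siControl and at 84.2, 35.6 and 136 CPM with siHOTAIRM1. CHAC1, which degrades glutathione, was at 2.24 CPM with siControl and 3.93 CPM with siHOTAIRM1 in U251, and at 0.725 to 1.40 CPM in the other lines. TRIB3, a pseudokinase that restrains ATF4, had the lowest mean change of the effectors, from 9.91, 21.7 and 14.3 CPM with siControl to 10.6, 13.2 and 12.4 CPM with siHOTAIRM1, and its mean was -0.05 without T98G. SESN2, a leucine sensor, had log2 changes of 0.23, -0.64 and 0.34. Of the 6 effectors 0 passed the test and 0 had an unadjusted p under 0.05 (smallest adjusted p = 0.306, limma, for DDIT4).

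Among the transporters, SLC7A5, the light chain of the large neutral amino acid transporter LAT1 (chromosome 16, 87830023 to 87869507, minus strand), had the highest mean change. It was at 193, 60.5 and 57.9 CPM with siControl and at 220, 39.6 and 144 CPM with siHOTAIRM1. The log2 changes were 0.18, -0.60 and 1.30, and the mean of 0.29 (SE 0.20) did not pass the test (adjusted p = 0.443, limma) and was -0.21 without U251. SLC3A2, the heavy chain that LAT1 and the cystine transporter share, had changes in the same directions and of smaller size in LN-229 (0.10), T98G (-0.59) and U251 (0.38). SLC7A1, a transporter of cationic amino acids, was at 102, 51.9 and 56.3 CPM with siControl and at 90.8, 38.3 and 55.0 CPM with siHOTAIRM1. SLC7A11, the cystine-glutamate exchanger, was at 118, 542 and 204 CPM with siControl and at 90.6, 412 and 230 CPM with siHOTAIRM1. SLC38A2, the sodium-coupled neutral amino acid transporter SNAT2, had log2 changes of 0.04, -0.23 and -0.12. Of the 5 transporters 0 were called and 0 had an unadjusted p under 0.05 (limma).

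The 8 tRNA synthetases of the list load amino acids onto the matching tRNAs. In T98G all 8 were lower, as were 79.3% of all genes, with log2 changes from -0.62 for GARS to -0.46 for EPRS and a median of -0.56, or -0.37 relative to all genes there. All 8 averaged more than 10 CPM. Over the 8099 genes at 10 CPM or more the median change in T98G was -0.24, in place of -0.19 over all genes tested. In LN-229 their changes ran from -0.13 for GARS to 0.23 for WARS, and in U251 from -0.33 for EPRS to 0.17 for MARS. MARS had the highest mean change of the group, from 63.6, 84.1 and 83.6 CPM with siControl to 61.0, 56.4 and 94.4 CPM with siHOTAIRM1. XPOT, the exportin that carries tRNA out of the nucleus, had the lowest, from 113, 63.5 and 125 CPM to 101, 45.8 and 102 CPM. Its mean log2 change was -0.30 (SE 0.15, unadjusted p = 0.0497, adjusted p = 0.272, limma), and reads on its pseudogene came to 8.34 to 9.27% of its value. Of the 9 genes 0 were called, and XPOT was the 1 with an unadjusted p under 0.05 (limma).

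**Figure D2:**
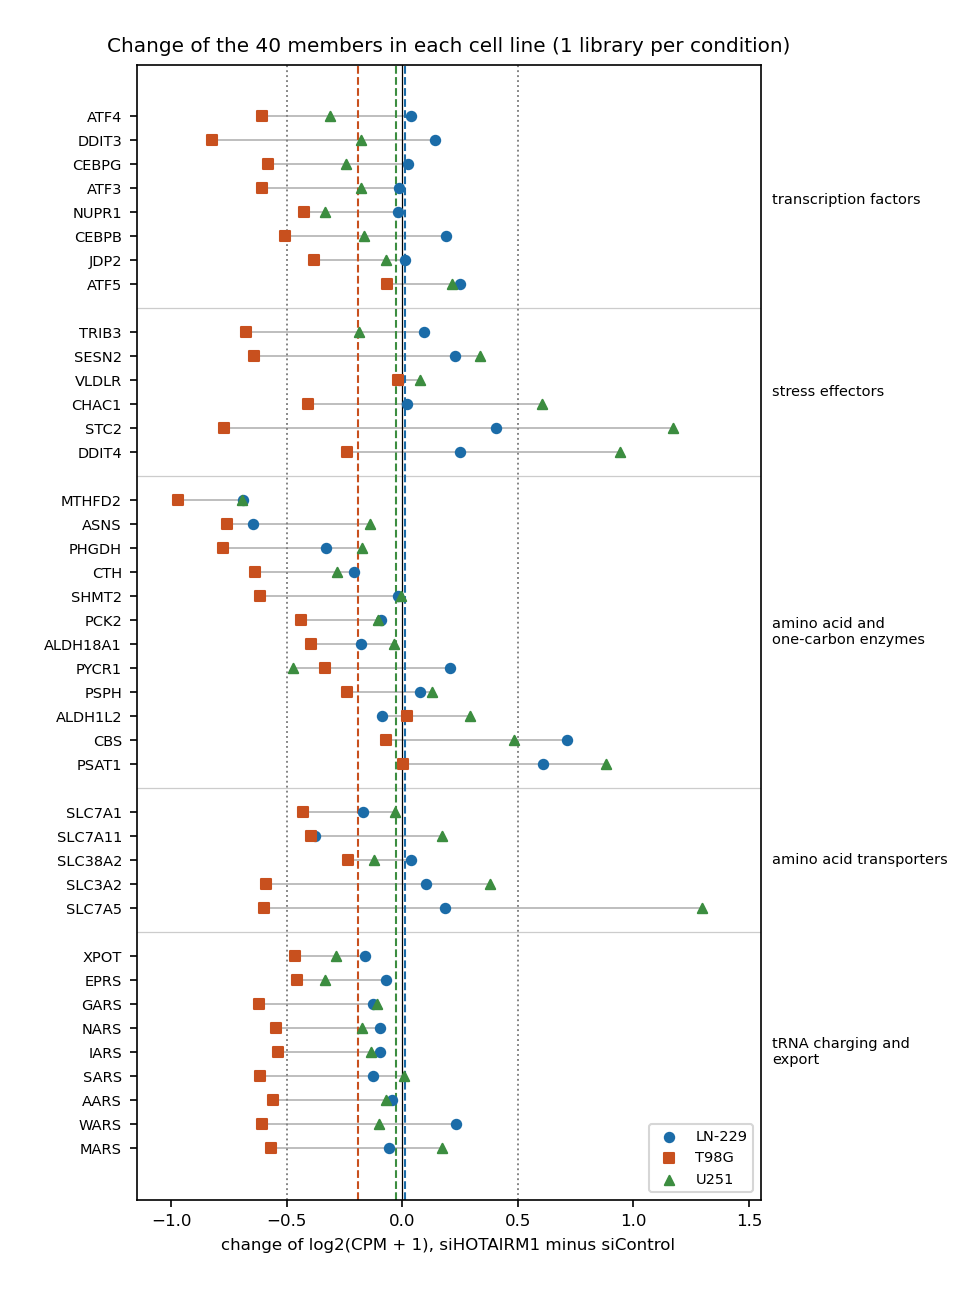
Change of log2(CPM + 1), siHOTAIRM1 minus siControl, of each of the 40 members in LN-229 (circles), T98G (squares) and U251 (triangles), grouped by role and ordered by mean change within a role. Dotted lines mark changes of 0.5 in either direction and dashed lines the median change of all 14294 genes in each cell line (0.01, -0.19 and -0.03). The squares of T98G lie left of the other symbols for most members.

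Within a cell line there is 1 library per condition, so no test was made and members are described by a change of at least 0.5 on the log2 scale. In T98G 22 of 40 members (55.0%) were lower by at least 0.5, against 8.26% of the genes tested, and 0 were higher by as much, against 0.644%. The 22 were ATF4, ATF3, DDIT3, CEBPB and CEBPG of the factors, TRIB3, SESN2 and STC2 of the effectors, PHGDH, SHMT2, MTHFD2, ASNS and CTH of the enzymes, SLC7A5 and SLC3A2 of the transporters, and 7 of the 8 tRNA synthetases. The median change of the members in T98G was -0.54, or -0.35 once the median over all genes is taken off. Many of the members lay close to the limit of 0.5, and the count depended on the scaling. When each library was centred on its median, 5 members (DDIT3, STC2, PHGDH, MTHFD2 and ASNS) and 1.81% of genes were lower by at least 0.5, and when the libraries were scaled to the listed genes, 7 members and 2.4% of genes were. The median change of the members in T98G was -0.34 and -0.33 under these scalings, and 35 of 40 were lower under each. With the filter raised to a mean of 10 CPM, 17 of 29 members (58.6%) and 10.6% of 8099 genes were lower by at least 0.5 in T98G.

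In LN-229 2 members were higher by at least 0.5 (PSAT1 and CBS), against 1.47% of genes, and 2 were lower (MTHFD2 and ASNS), against 0.993%. The members' median in LN-229 was -0.01, and 19 were higher and 21 lower. In U251 5 members (12.5%) were higher by at least 0.5, namely CHAC1, DDIT4, STC2, PSAT1 and SLC7A5, against 6.56% of genes. MTHFD2 was the single member lower by at least 0.5 in U251 (2.50%), against 11.9% of genes. The median change of the members in U251 was -0.09 as deposited and 0.16 when scaled to the listed genes, a scaling that moved the median of all genes there from -0.03 to 0.18. Scaled in that way, 9 members in U251 were higher by at least 0.5, against 20.4% of genes, and 0 were lower. The siControl library of U251 was the shallowest and its listed genes took the largest share of the scale, and their part in these values was not tested.

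**Figure D3:**
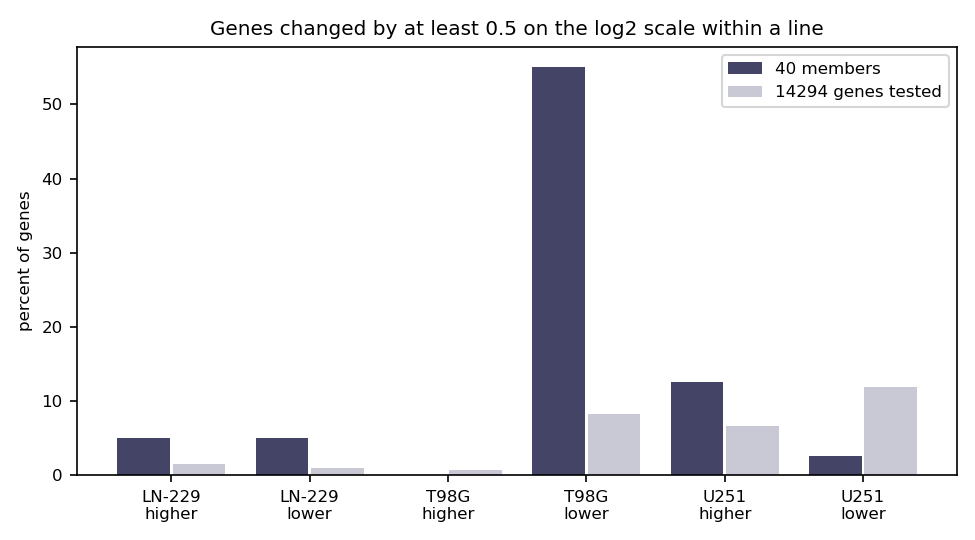
Percent of the 40 members (dark bars) and of the 14294 genes tested (light bars) that were higher or lower by at least 0.5 on the log2 scale within each cell line. The bar for lower members in T98G stands at 55.0% beside 8.26% of genes, while in U251 2.50% of members beside 11.9% of genes were lower.

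Over the 40 members, the changes in LN-229 and T98G had a Pearson correlation of 0.45, those in LN-229 and U251 of 0.56, and those in T98G and U251 of 0.30. Over all genes tested these values were 0.25, 0.29 and 0.41. The points are genes of the same 6 libraries and share the depth of each, so the values are given as a description. Counting errors were small beside these changes for the abundant members. In T98G the 3511 and 1850 reads of MTHFD2 gave a 95% Clopper-Pearson interval of the log2 ratio from -1.08 to -0.92, and in U251 the 3024 and 14532 reads of SLC7A5 gave 1.25 to 1.37. For low members they were wide. The 97 and 59 reads of CHAC1 in T98G gave -1.28 to -0.31. These intervals cover counting error alone and not the spread between cultures.

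The 12 members with the response element in their window and the 22 with a window without it had similar medians in T98G, -0.56 (range -0.76 to -0.38) and -0.55 (range -0.97 to 0.00). In LN-229 the medians were -0.05 and 0.07, and in U251 -0.09 and -0.10. The members with the match spanned a narrower range in each line, for example -0.24 to 0.61 against -0.69 to 1.30 in U251. These are descriptions of 34 genes in groups of unequal size, without a test.

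The levels of the members were also compared between the cell lines. Each line contrast compared both libraries of a line with both of another in the same limma fit, with the knock-down as a term, so its error is the spread of the change between lines and not that of repeated cultures. LN-229 and T98G differed in 26 of 40 members (65.0%), against 54.9% of all genes. LN-229 and U251 differed in 23 (57.5%, against 60.6%), and T98G and U251 in 26 (65.0%, against 64.2%). In all 36 members differed in at least 1 contrast, as did 84.8% of all genes, and 4 in none (ATF4, ATF5, SESN2 and IARS). In all 3 contrasts 7 members differed (JDP2, NUPR1, VLDLR, ALDH1L2, CBS, SLC7A11 and SLC7A5), beside 22.4% of all genes. JDP2, NUPR1, ALDH1L2 and CHAC1 were below 1 CPM in a line and entered the test through the lines in which they were high. Their differences are therefore no support for a pattern. CHAC1 is counted in LN-229 against U251 and in T98G against U251. Among the 36 members at 1 CPM or more in each line 4 differed in all 3 contrasts, beside 18.0% of such genes.

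VLDLR, the very low density lipoprotein receptor and an ATF4 target, had the widest range between lines. It was at 145 and 153 CPM in U251, at 6.63 and 6.56 CPM in LN-229 and at 1.52 and 1.49 CPM in T98G, siControl first. The difference between T98G and U251 was -5.91 on the log2 scale (SE 0.17, adjusted p = 1.39e-25, limma), and its change with the knock-down was at most 0.08 in any line. NUPR1, a small stress-induced chromatin protein, was at 8.04 and 5.73 CPM in T98G and at 3.92 and 2.91 CPM in U251, while LN-229 held 2 and 1 reads, below the level of 3 reads per library taken as the floor. Set against that floor, T98G was at least 169-fold higher than LN-229 and U251 at least 85.5-fold higher. ALDH1L2, the mitochondrial enzyme that removes formyl groups from folate, was at 3.97 and 3.67 CPM in LN-229 and at 1.59 and 2.17 CPM in U251, against 1 and 2 reads in T98G. LN-229 was thus at least 84.6-fold and U251 at least 36.6-fold higher than T98G.

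SLC7A11 was highest in T98G. The log2 level of LN-229 minus that of T98G was -2.18 (SE 0.21, adjusted p = 3.77e-11, limma), and that of T98G minus U251 was 1.12 (SE 0.21, adjusted p = 2.12e-05). Over both libraries SLC7A5 had the opposite order, highest in LN-229, by 2.05 over T98G (SE 0.24, adjusted p = 5.74e-09, limma) and by 1.17 over U251 (SE 0.24, adjusted p = 0.000108, limma). With siControl alone T98G and U251 were close for SLC7A5 (60.5 and 57.9 CPM). Its lead in U251 over T98G lay in the siHOTAIRM1 libraries (144 against 39.6 CPM). CBS was highest in T98G at 20.6 and 19.6 CPM, and CEBPG in U251. DDIT3 was lower in LN-229 than in T98G (log2 difference -1.33, SE 0.19, adjusted p = 3.60e-07, limma) and U251 (-1.29, adjusted p = 5.41e-07), whereas T98G and U251 did not differ beyond the spread (0.03, SE 0.19, adjusted p = 0.893). The serine enzymes PHGDH and PSAT1 were highest in U251 over both libraries, and LN-229 and T98G did not pass the test for either (adjusted p = 0.531 and 0.111, limma). For PSAT1 the siControl libraries of T98G and U251 were close (17.0 and 17.8 CPM). Its lead in U251 over T98G lay in the siHOTAIRM1 libraries (33.5 against 17.0 CPM). ATF4 differed by at most 0.08 between lines (smallest adjusted p = 0.75, limma). Per kilobase of merged exons ATF4 was at 38.3, 38.4 and 39.8 CPM in LN-229, T98G and U251 as a mean of both libraries, while SLC38A2 was at 42.5, 123 and 59.7 CPM per kilobase. With the length of the main annotated transcript in place of merged exons, ATF4 was at 70.5, 70.7 and 73.4 and SLC38A2 at 57.7, 167 and 81.1. Their order in LN-229 thus depends on the length used.

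**Figure D4:**
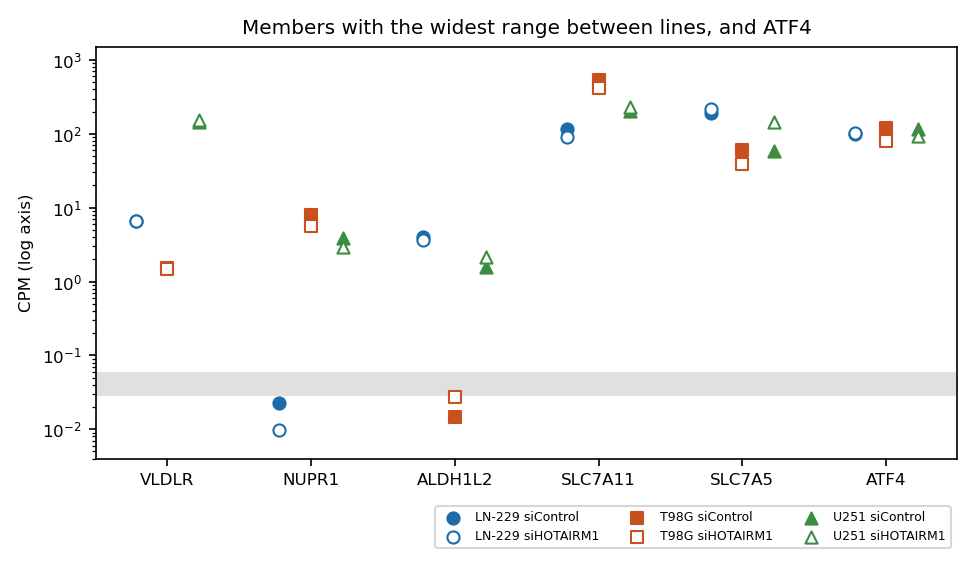
CPM on a log axis of the 5 members with the widest range between cell lines and of ATF4, in LN-229 (circles), T98G (squares) and U251 (triangles), with filled symbols for siControl and open symbols for siHOTAIRM1 libraries. The grey band marks the range of a level of 3 reads (0.0289 to 0.0574 CPM). NUPR1 in LN-229 and ALDH1L2 in T98G lie below it, and ATF4 lies at 79.4 to 121 CPM in all libraries.

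Other genes of the pathway were taken from lists set by symbol, with earlier results of these data known. The counts of these lists stand beside 2.0% of all genes called and 18.3% at an unadjusted p under 0.05 (limma). Of the 16 genes of the eIF2 kinases, the eIF2 phosphatase and the eIF2 machinery, 0 were called by limma and 2 had an unadjusted p under 0.05. EIF2S1, the phosphorylated alpha subunit of eIF2, had the lowest mean, from 90.6, 50.3 and 115 CPM with siControl to 76.6, 33.2 and 80.6 CPM (mean log2 change -0.44, adjusted p = 0.0994, limma), and EIF2AK2, the kinase PKR, the highest (0.06). Of 15 other cytosolic tRNA synthetases and partners 0 were called (4 at an unadjusted p under 0.05), the lowest being RARS (mean log2 change -0.52, adjusted p = 0.0637, limma) and the highest VARS (0.05). Their median change in T98G was -0.46, beside -0.56 for the 8 member synthetases and -0.23 for 17 mitochondrial synthetases. This is -0.27, -0.37 and -0.04 relative to all genes tested in that line, without regard to their level. Over the 8099 genes at 10 CPM or more the median there was lower, at -0.24. Of the mitochondrial synthetases 0 were called (2 at an unadjusted p under 0.05, limma), with CARS2 lowest (-0.32) and SARS2 highest (0.12).

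Of 9 other amino acid transporters that passed the filter 0 were called by limma (4 at an unadjusted p under 0.05), with SLC1A4 lowest (mean log2 change -0.37) and SLC36A1 highest (0.30). Of 13 other enzymes of amino acid and folate metabolism 0 were called (0 at an unadjusted p under 0.05), with MTHFD1 lowest (-0.25) and AASS highest (0.26). MTHFD2L, the paralogue of MTHFD2, was at 12.3, 9.06 and 36.0 CPM with siControl and at 11, 7.11 and 32.1 CPM with siHOTAIRM1 (mean log2 change -0.21, adjusted p = 0.447, limma). Of 21 other stress genes linked to ATF4, 1 was called and 7 had an unadjusted p under 0.05. TXNIP, the thioredoxin-interacting protein, rose from 4.93, 102 and 4.84 CPM with siControl to 18.3, 159 and 34.2 CPM with siHOTAIRM1 (mean log2 change 1.64, SE 0.19, adjusted p = 4.69e-06, limma). TXNIP had the highest mean change of all 14294 genes. Since the list was set with earlier results known, its call is no support for a pattern in the list. The lowest of this list was SQSTM1, an autophagy receptor, at a mean of -0.52 (adjusted p = 0.134). Of 16 genes of the IRE1 and ATF6 branches of the unfolded protein response 0 were called by limma (1 at an unadjusted p under 0.05), and their median change was 0.16 (LN-229), -0.31 (T98G) and -0.00 (U251), with -0.12 in T98G relative to all genes.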

How the data were processed

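RNA sequencing of 6 libraries (siControl or siHOTAIRM1, 1 of each in LN-229, T98G and U251) was analysed. The authors prepared 500 ng of total RNA with an unstranded TruSeq v2 kit, read 101 cycles, and in Partek Flow trimmed 13 bases at the 5′ and 1 base at the 3′ end. Reads were aligned to hg38 with STAR 2.4.1d, then Bowtie 2 2.2.5, and quantified on Ensembl release 84 by Expectation-Maximization. The authors deposited CPM values with 0.0001 added. The values of a library reach 42.9 to 67.2% of the full scale, so reads outside the table also entered the total. The smallest steps of low values gave the size of 1 read and with it 52.3 to 104 M reads per library and a level of 3 reads at 0.0289 to 0.0574 CPM. Since 81.5 to 83.1% of values below 200 reads were whole (within 0.02 reads), no count test was used.

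Differences of log2(CPM + 1) of genes averaging 1 CPM or more were tested with limma 3.58.1 (R 4.3.3), a mean-variance trend and a block for the line, and p-values were adjusted by Benjamini-Hochberg over all 14294 genes (threshold 0.05). A pseudocount of 1 understates the change of low genes. The block is by cell line. After the mean of each condition was taken off, libraries of the same line deviated together (correlation 0.95 to 0.97). The correlations between different lines (-0.50 to -0.47) are near what centring on 3 libraries produces by itself, so no conclusion is drawn from them. Gene positions and exon lengths came from GENCODE v44, which matched all 40 members. The steps were tested on simulated data. The members and lists were chosen with earlier results of these data known. Values were named for ATF4, ATF5, ATF3, DDIT3, CEBPB and CEBPG, for members called or past 0.5 in the same direction in 2 lines, for the highest and lowest of each role or list, and for the 5 widest ranges between lines. Other members are given as examples chosen after their values were seen. Alternatives were median centring, scaling to the listed genes, a pseudocount of 0.1, no filter, removal of a trend with exon length, no variance trend, no block and leaving out lines or libraries. Adding pseudogene reads, a mean of at least 10 CPM, testing the genes with an exon length alone and the CCAAT search were chosen after seeing the data.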

Additional observations from a re-analysis of the deposited data

Results flagged for a closer look

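The changes of STC2 and SLC7A5 had opposite directions in U251 and T98G. For STC2 the change in U251 exceeded that in T98G by 1.94 on the log2 scale (1.17 against -0.77), and for SLC7A5 by 1.90 (1.30 against -0.60). With 1 library per condition in a line, these differences were not tested. After subtraction of each line's overall median they were 1.78 and 1.73, with STC2 at 1.20 in U251 and -0.58 in T98G, and SLC7A5 at 1.32 and -0.41.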

How the results depend on the processing

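The count of genes called (286, 59 or 20.6% of them higher) was 41 with median centring (15 or 36.6% higher), 25 with scaling to the listed genes (10 higher), 683 with a pseudocount of 0.1, 595 with the trend of exon length removed, which took the 13151 genes with a length (511 on these genes with the trend left in), 185 without the variance trend, and 0 with no filter or no replicate block (2477 and 29 at an unadjusted p under 0.05). Leaving out 1 cell line gave 0 (without T98G, 1206 unadjusted) to 270, with 149 without U251. The members called (MTHFD2) were 0 with scaling, no filter or no replicate block, 3 with a pseudocount of 0.1 (PSAT1, MTHFD2 and ASNS), 4 with the length trend removed (PHGDH in addition; 3, without PHGDH, on the same genes with the trend left in), and 0 (without T98G) to 2 (without U251, MTHFD2 and ASNS) when leaving out a line. MTHFD2 passed the test under 7 of 11 alternatives (log2 changes from -0.83 to -0.71), and over all 11 its change was -0.83 to -0.65. With no filter the members called between lines were 17, 12 and 15 for LN-229 against T98G, LN-229 against U251 and T98G against U251. That setting tested 36028 genes. The share of all genes called between lines is not given for any alternative. Counts of members called between lines under the alternatives therefore do not set the members apart from genes in general. Leaving out 1 library gave 15 (without LN-229 siControl) to 23 for LN-229 against U251, and leaving out the knock-down term gave 17 for T98G against U251. Within T98G 5 (median centred) or 7 (scaled) members in place of 22 were lower by 0.5, and within U251 9 were higher and 0 lower when scaled. Leaving out a line reversed CEBPB (-0.34 to 0.013, the latter without T98G), MARS (-0.31 to 0.057, the latter without T98G) and SLC7A5 (-0.21 without U251 to 0.74). The cause of these differences was not tested. Of 198 values of 18 genes under the alternatives, 185 kept direction and side of the threshold, 4 lost and 6 gained the call and 3 reversed. The depth of 3 reads limits NUPR1 in LN-229 and ALDH1L2 in T98G.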
